A study of Mus musculus with 12 samples.

Results

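The class III POU genes Pou3f1, Pou3f2, Pou3f3 and Pou3f4 were followed through RNA sequencing of mouse embryos with a neural crest cell-specific alteration of Eftud2. They are 4 of the 24421 gene symbols in the count table, and all 4 passed the filter on low counts that left 14810 genes for testing. The set was chosen by symbol, because Pou3f4 had a lower level in the homozygous libraries at E9.0. The E9.0 genotype values of the family are therefore given as a description, with no test.

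Class III POU proteins are transcription factors that grip DNA with a POU-specific domain and a POU homeodomain joined by a flexible linker, and they bind octamer-like sequences, often next to a SOX protein on enhancers of the neural tube. Pou3f1 (Oct-6, SCIP) is known for the timing of Schwann cell myelination and for early neural commitment. Pou3f2 (Brn-2) and Pou3f3 (Brn-1) act with overlapping roles in neural progenitors and in the layering of the cortex, and Pou3f4 (Brn-4) is made in the neural tube and in the mesenchyme around the ear vesicle, where its loss causes X-linked deafness.

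The study compared embryos of strain C57Bl/6 that were heterozygous (Eftud2+/-, the control) or homozygous (Eftud2-/-, the mutant) for the alteration, at embryonic day (E) 9.0 and at E9.5, in 4 groups of 3 libraries. Eftud2 encodes a GTPase of the U5 particle of the spliceosome, and changes in the human gene cause a craniofacial condition, mandibulofacial dysostosis with microcephaly, which the mice model. Controls and mutants thus both carry the alteration, the controls on a single allele. The labels name neither the Cre driver nor the number of embryos or of somites per library, and nothing in them says that the libraries of a group came from separate embryos, so the p-values measure the spread between these libraries. The labels give the material as neural crest cells, as cranial nerve ganglia and, in the protocol, as heads.

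Library totals ran from 13914543 to 31172708 counts. Eftud2 itself lay at 275 to 302 CPM (counts scaled to a common library size with TMM factors, which compare libraries over most genes) in heterozygous and 232 to 236 CPM in homozygous libraries at E9.0, and at 248 to 264 against 221 to 226 CPM at E9.5. Its groups stood apart at both stages, in the direction of the labels, and the difference passed the test at E9.0 (edgeR adjusted p = 0.0193) and missed the threshold at E9.5 (0.0906). When replicate 1 of the heterozygous E9.0 group was left out, its difference there went from -0.29 to -0.25 on the log2 scale and lost its call (edgeR adjusted p = 0.0645). That library stood apart, with 37.4% of its counts on the ribosomal precursor Rn45s against 4.4% to 16.2% in the other 11 libraries. Its TMM factor was 0.664 against 0.924 to 1.11. The members' E9.0 genotype and heterozygous stage differences, and the calls of named list genes that rest on it, are also given without it. Among the results given only with it are percentages of all genes and shares with RefSeq lengths. The same holds for the members' differences between stage estimates, the single-exon classes and the r values. Markers of migrating crest were present in every library (summed level 422 to 866 CPM), as were those of neural progenitors (724 to 958 CPM), forebrain (154 to 219 CPM), endothelium (168 to 334 CPM), erythroid cells (537 to 5200 CPM) and heart muscle (69.5 to 3260 CPM), and no marker of these lists was at 0 in all 12 libraries. In each group the largest part of the crest sum was Crabp1 (means of 262 to 474 CPM).

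Each family member is a single-exon gene with a single transcript in GENCODE M21 (build GRCm38, the assembly also called mm10). Pou3f1 (ENSMUSG00000090125.3) lies on the plus strand at chr4:124656807-124660655 and spans 3849 bases. Pou3f2 (ENSMUSG00000095139.2) lies on the minus strand at chr4:22482780-22488366 and spans 5587 bases. Pou3f3 (ENSMUSG00000045515.3) lies on the plus strand at chr1:42695768-42703176 and spans 7409 bases. Pou3f4 (ENSMUSG00000056854.4) lies on the plus strand at chrX:110814280-110817207 and spans 2928 bases. Since none of them has an intron in this model, their counts hold no spliced and unspliced forms. Pou3f1 overlaps the antisense gene Gm2164, and Pou3f3 overlaps the sense transcript AC122898.1, so reads of these overlaps may be shared, as the strand setting of the counting is not given in the sources used here.

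Part of the coding sequence for the POU-specific domain is shown, because reads from stretches that paralogs share can be placed on the wrong gene. The window was set around a run of bases common to all 4 genes, and other windows were not compared. The 99 bases below, read from the GENCODE transcripts 5′ to 3′, begin at coding base 862 of Pou3f1, 919 of Pou3f2, 1060 of Pou3f3 and 685 of Pou3f4, and capitals mark the 75 bases (75.8%) that are identical in all 4 genes.
Pou3f1: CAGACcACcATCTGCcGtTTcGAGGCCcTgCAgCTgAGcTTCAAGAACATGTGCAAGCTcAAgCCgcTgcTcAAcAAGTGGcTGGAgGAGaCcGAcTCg
Pou3f2: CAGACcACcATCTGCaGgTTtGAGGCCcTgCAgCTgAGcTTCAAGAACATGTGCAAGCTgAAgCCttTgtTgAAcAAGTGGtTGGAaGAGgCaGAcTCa
Pou3f3: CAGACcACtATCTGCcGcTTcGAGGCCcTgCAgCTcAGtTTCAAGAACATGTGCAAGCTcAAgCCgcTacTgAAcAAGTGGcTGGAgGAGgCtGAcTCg
Pou3f4: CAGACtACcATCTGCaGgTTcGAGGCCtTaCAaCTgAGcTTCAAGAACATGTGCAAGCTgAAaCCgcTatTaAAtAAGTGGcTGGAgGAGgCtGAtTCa
Between pairs, 83 to 91 of the 99 bases were identical, most between Pou3f1 and Pou3f3 (91.9%) and fewest between Pou3f4 and either Pou3f1 or Pou3f3 (83.8%). The longest run shared by any pair of transcripts was 38 bases, between Pou3f1 and Pou3f2, and the longest run that Pou3f4 shared with another member was 29 bases. No stretch of 50 bases of any member occurred in another member, and of stretches of 30 bases 0.236% of Pou3f1 and 0.162% of Pou3f2 did. A read that covers more than these runs and matches its gene exactly can be assigned to a single member.

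RefSeq promoter entries (GRCm38.p6) were found for 3 of the 4 genes, Pou3f2, Pou3f3 and Pou3f4, and all that were found are shown. These are also the genes that were higher at E9.5 than at E9.0 in both genotypes. Pou3f1, which was lower at E9.5, had no entry to set beside them. The stretches end at the base before the annotated start, and that of Pou3f4 is cut to 151 bases so that it ends before the earlier GENCODE start. Capitals mark CCAAT or its reverse complement ATTGG.
Pou3f2, chr4:22488367-22488616, minus strand: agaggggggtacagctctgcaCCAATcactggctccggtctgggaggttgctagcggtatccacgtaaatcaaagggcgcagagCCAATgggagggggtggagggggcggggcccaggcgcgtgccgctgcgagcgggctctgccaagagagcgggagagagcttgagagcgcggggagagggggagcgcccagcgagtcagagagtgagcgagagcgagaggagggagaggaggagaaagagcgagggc
Pou3f3, chr1:42695518-42695767, plus strand: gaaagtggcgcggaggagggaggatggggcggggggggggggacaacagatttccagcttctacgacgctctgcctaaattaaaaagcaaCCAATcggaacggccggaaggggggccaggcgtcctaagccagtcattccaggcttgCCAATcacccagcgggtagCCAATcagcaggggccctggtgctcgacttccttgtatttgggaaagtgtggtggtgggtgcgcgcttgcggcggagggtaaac
Pou3f4, chrX:110814129-110814279, plus strand: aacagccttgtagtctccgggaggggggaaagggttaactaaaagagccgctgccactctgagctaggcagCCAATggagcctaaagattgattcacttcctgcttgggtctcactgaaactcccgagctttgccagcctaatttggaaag
The stretch of Pou3f2 held 2 CCAAT matches, that of Pou3f3 held 3, and that of Pou3f4 held 1, with 3 in its full window of 250 bases. At least 2 such matches stood in 10.1% of the 32851 RefSeq promoters of 250 bases, and at least 1 in 33.8%. The other motifs searched, on both strands, were TATAAA (in 12.4% of promoters), the octamer ATGCAAAT (1.6%), the SOX-type ACAAAG (16.5%) and the GC box CCCGCC (32.5%), and no matches overlapped. Of these, CCCGCC was found once in Pou3f2 and once in Pou3f3, and the letters of the other 3 motifs were not in these windows. The motifs were chosen after the sequences were seen, and a match is a description only.

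At E9.0 Pou3f2 was the most abundant family member and Pou3f4 the least. Per kilobase of the GENCODE transcript, which allows genes to be compared, the mean level in heterozygous libraries was 9.25 ± 1.07 CPM per kilobase for Pou3f2 (SD, n = 3, as for all means ± SD here). It was 5 ± 0.578 for Pou3f1, 1.44 ± 0.12 for Pou3f3 and 0.968 ± 0.0631 for Pou3f4, and no neighbours in this order overlapped. Without heterozygous replicate 1 these means were 9.71, 4.92, 1.43 and 0.952. At E9.5 the order had changed, as Pou3f3 stood above Pou3f1. Heterozygous libraries then held 12.3 ± 1.62 CPM per kilobase of Pou3f2, 6.62 ± 1.02 of Pou3f3, 3.19 ± 0.968 of Pou3f1 and 2.46 ± 0.523 of Pou3f4. The ranges of Pou3f1 and Pou3f4 overlapped at E9.5 in heterozygous libraries (2.29 to 4.21 against 1.98 to 3.02) and in homozygous ones (1.43 to 1.81 against 1.22 to 1.72). The order depends in part on the transcript model: with RefSeq lengths of 3010, 6272, 4443 and 4730 bases for Pou3f1 to Pou3f4, Pou3f2 and Pou3f3 overlapped in heterozygous E9.5 libraries (9.49 to 12.4 against 9.54 to 12.9 CPM per kilobase), Pou3f2 and Pou3f1 overlapped in homozygous E9.0 libraries, and Pou3f4 was lowest in all 4 groups with no overlap.

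**Figure D1:**
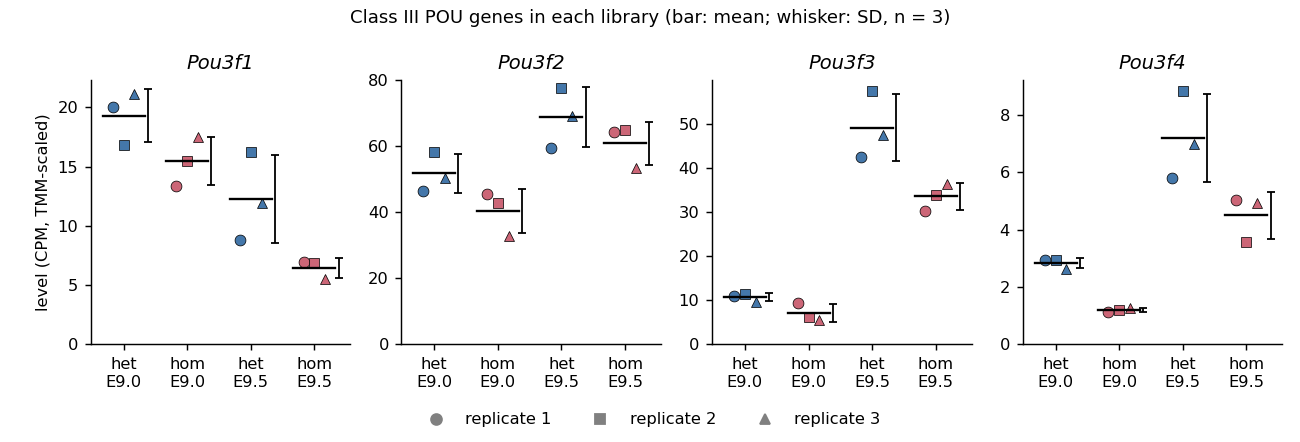
Level of each class III POU gene in each library, in CPM on a linear axis from 0, by group (het, heterozygous; hom, homozygous). Points are libraries with a symbol per replicate number, bars are means and whiskers the SD of 3 libraries; Pou3f4 lay at 1.13 to 1.28 CPM in homozygous and 2.62 to 2.95 CPM in heterozygous libraries at E9.0.

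The comparison of genotypes at E9.5 sets mutant against control embryos at the later stage. The rule that chose the set did not use the E9.5 libraries, though their results were known when it was chosen. Pou3f1 fell 1.9-fold and Pou3f4 fell 1.61-fold in homozygous libraries, while Pou3f3 was 1.46-fold lower and just missed the threshold and Pou3f2 was 1.13-fold lower within its spread. Thus 2 of the 4 members were called lower and 0 higher, where 0.702% of all genes tested were called lower, 1.19% higher and 1.89% in either direction. Both calls were lost when any of the homozygous E9.5 libraries was left out, and when only the E9.5 libraries were fitted. The groups did not overlap for 3 of the 4 members, all lower, against 9.47% of all genes, and the members' median log2 difference was -0.62 against -0.003 over all genes. In these bulk libraries fewer cells that make a transcript and less transcript per cell cannot be told apart.

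Pou3f1 was measured at 8.81, 16.2 and 11.9 CPM in heterozygous replicates 1, 2 and 3 and at 6.98, 6.84 and 5.51 CPM in the homozygous ones. Every homozygous library lay below every heterozygous one, and the heterozygous libraries were the more scattered (12.3 ± 3.73 against 6.44 ± 0.812 CPM). The log2 difference, homozygous minus heterozygous, was -0.93 ± 0.19 (SE; 95% interval -1.34 to -0.52; edgeR's quasi-likelihood test, adjusted p = 0.0237). It lost its call when any of the homozygous libraries was left out (-0.98 without replicate 1, -0.97 without replicate 2 and -0.83 without replicate 3, edgeR adjusted p = 0.0578, 0.0744 and 0.0999) and when only the E9.5 libraries were fitted (adjusted p = 0.1).

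Pou3f4 was measured at 5.79, 8.83 and 6.99 CPM in heterozygous replicates 1, 2 and 3 (190, 301 and 197 counts) and at 5.02, 3.56 and 4.91 CPM in the homozygous ones (149, 116 and 131 counts). The groups did not overlap, and the gap between the lowest heterozygous and the highest homozygous library lay within counting error, with exact Poisson 95% intervals of 5 to 6.67 and 4.25 to 5.9 CPM. The log2 difference was -0.68 ± 0.16 (SE; 95% interval -1.03 to -0.34; edgeR adjusted p = 0.0434), from means of 7.2 ± 1.53 and 4.5 ± 0.814 CPM. This call was held in 1 of 6 fits with a library left out, that without heterozygous replicate 1. It was lost without heterozygous replicate 2 (-0.51) or 3 (-0.70) and without homozygous replicate 1 (-0.77), 2 (-0.53) or 3 (-0.75), with edgeR adjusted p = 0.193, 0.0876, 0.0682, 0.22 and 0.0899. Scaling by total counts, only the E9.5 libraries, a higher count minimum, non-robust dispersions or a block for replicate number also ended it (edgeR adjusted p = 0.0501 to 0.102). The log2 difference stayed between -0.82 and -0.51.

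Pou3f3 was measured at 42.4, 57.3 and 47.5 CPM in heterozygous and at 30.2, 33.9 and 36.4 CPM in homozygous replicates 1, 2 and 3. The groups did not overlap. The log2 difference was -0.55 ± 0.13 (SE; 95% interval -0.84 to -0.26), with an unadjusted p = 0.00101 and an adjusted p = 0.0522 in edgeR's quasi-likelihood test. It passed the threshold when heterozygous replicate 1 was left out (-0.64, edgeR adjusted p = 0.0342), with DESeq2 (adjusted p = 0.00639) and with limma-voom (adjusted p = 0.015), at nearly the same size.

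Pou3f2 was measured at 59.5, 77.6 and 69 CPM in heterozygous and at 64.1, 64.9 and 53.2 CPM in homozygous replicates 1, 2 and 3. The ranges overlapped, and only homozygous replicate 3 lay below all heterozygous libraries. The log2 difference of -0.18 ± 0.13 (SE; edgeR adjusted p = 0.622) had a 95% interval of -0.45 to 0.09, and it ran from -0.27 to -0.08 with a library left out. Heterozygous replicate 2 had the highest level of all 4 members among the E9.5 libraries, and heterozygous replicate 1 had the lowest heterozygous level of all 4. With 3 libraries against 3, an exact permutation test (two-sided) cannot go below p = 0.1, which Pou3f1, Pou3f3 and Pou3f4 reached, and Pou3f2 gave p = 0.4.

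At E9.0, where the genotype difference of Pou3f4 chose the set, all 4 members had a lower mean in homozygous libraries. Pou3f4 was measured at 2.93, 2.95 and 2.62 CPM (40, 55 and 61 counts) in heterozygous and at 1.13, 1.2 and 1.28 CPM (15, 21 and 19 counts) in homozygous replicates 1, 2 and 3. The homozygous libraries were the lower ones, by the choice of the gene, and each mean rested on few counts. The difference was -1.22 ± 0.25 on the log2 scale (SE), a 2.33-fold lower level, and -1.2 without heterozygous replicate 1.

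Pou3f3 lay at 10.9, 11.5 and 9.71 CPM in heterozygous and at 9.47, 6.24 and 5.54 CPM in homozygous replicates 1, 2 and 3 at E9.0. Its groups came close, at 9.71 and 9.47 CPM, but did not overlap, and the log2 difference was -0.6 ± 0.18 (SE; -0.59 without heterozygous replicate 1). Pou3f2 lay at 46.4, 58.2 and 50.4 CPM against 45.5, 42.9 and 32.8 CPM, again without overlap and with the closest libraries 46.4 and 45.5 CPM. Its log2 difference was -0.36 ± 0.13 (SE; -0.43 without heterozygous replicate 1 and -0.23 without homozygous replicate 3). Pou3f1 lay at 20, 16.8 and 21.1 CPM against 13.4, 15.5 and 17.5 CPM, and its ranges overlapped, with a log2 difference of -0.32 ± 0.19 (SE; -0.29 without heterozygous replicate 1). Groups without overlap and lower were thus 3 of 4 members, where 8.2% of all genes tested showed this. Of all genes 0.155% were called lower, 0.432% higher and 0.587% in either direction at E9.0. The set was chosen on this contrast, and nothing is read from the count.

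The estimates of the genotype difference at the separate stages are set side by side, since whether they differ was not tested for the members. On the log2 scale Pou3f4 had -1.22 at E9.0 and -0.68 at E9.5, Pou3f3 -0.6 and -0.55, Pou3f2 -0.36 and -0.18, and Pou3f1 -0.32 and -0.93. The estimate at E9.5 minus that at E9.0 was 0.54 ± 0.3 (SE) for Pou3f4, 0.05 ± 0.22 for Pou3f3, 0.18 ± 0.18 for Pou3f2 and -0.61 ± 0.27 for Pou3f1. Pou3f4 had the estimate of largest size at E9.0 and Pou3f1 that at E9.5.

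**Figure D2:**
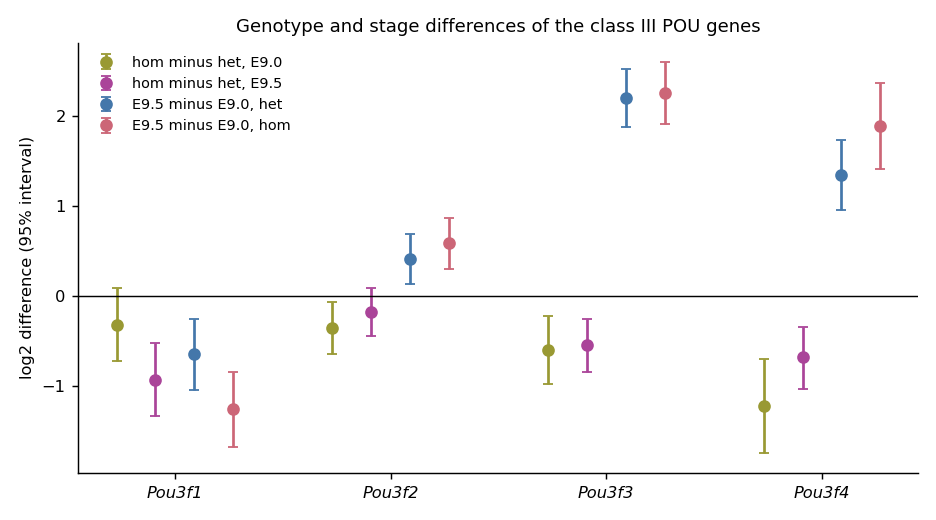
Log2 differences of each class III POU gene between genotypes at each stage and between stages in each genotype, with 95% intervals from the edgeR fit. All 8 genotype differences lie below 0; the E9.0 genotype values and the stage values of Pou3f4 are descriptions, and the stage differences are below 0 for Pou3f1 (-0.65 and -1.26) and above 0 for the other 3 genes.

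The comparison of stages asks how the family changes over early head development. In both genotypes Pou3f3 rose most steeply among the 3 members tested, Pou3f2 rose modestly and Pou3f1 fell. Of those tested, 2 of 3 were called higher and 1 of 3 lower in each genotype, against 19.2% of all genes called higher and 16% lower in heterozygous libraries (35.2% in all) and 19.6% and 15.8% in homozygous ones (35.4% in all). For these 3 members the stages did not overlap in either genotype, with 2 higher and 1 lower. Of all genes 25.2% stood apart and higher and 22.5% apart and lower in heterozygous libraries, and 26% and 22.1% in homozygous ones.

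Pou3f3 went from 9.71 to 11.5 CPM at E9.0 to 42.4 to 57.3 CPM at E9.5 in heterozygous libraries, a 4.61-fold rise (log2 2.2 ± 0.15 SE; edgeR adjusted p = 1.22e-07). In homozygous libraries it went from 5.54 to 9.47 CPM to 30.2 to 36.4 CPM, a 4.78-fold rise (log2 2.26 ± 0.16 SE; edgeR adjusted p = 1.81e-07). The rise was much larger than the scatter of either group, and it was 2.22 on the log2 scale without heterozygous E9.0 replicate 1.

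Pou3f2 rose 1.33-fold in heterozygous libraries (log2 0.41 ± 0.13 SE; edgeR adjusted p = 0.0242) and 1.5-fold in homozygous ones (log2 0.59 ± 0.13 SE; edgeR adjusted p = 0.00363). The heterozygous ranges nearly touched, at 58.2 and 59.5 CPM. The heterozygous call was lost without E9.0 replicate 1 (0.34, edgeR adjusted p = 0.109), E9.0 replicate 3 (0.39, 0.0791), E9.5 replicate 2 (0.31, 0.0901) or E9.5 replicate 3 (0.41, 0.0602), and without the filter on low counts (0.43, 0.0689).

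Pou3f1 fell 1.57-fold in heterozygous libraries, from 16.8 to 21.1 CPM to 8.81 to 16.2 CPM (log2 -0.65 ± 0.18 SE; edgeR adjusted p = 0.0132), and 2.4-fold in homozygous ones, from 13.4 to 17.5 CPM to 5.51 to 6.98 CPM (log2 -1.26 ± 0.2 SE; edgeR adjusted p = 0.000241). Its highest heterozygous E9.5 library, replicate 2, came close to the E9.0 range. The heterozygous fall lost its call without E9.0 replicate 3 (-0.57, edgeR adjusted p = 0.0564) and when libraries were scaled by total counts (-0.28, adjusted p = 0.205), a scaling that moved the median of all genes by 0.38 in this contrast, and it was -0.62 (adjusted p = 0.047) without E9.0 replicate 1.

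Pou3f4, whose E9.0 values chose the set, is given without a test. Its mean was 2.55-fold higher at E9.5 than at E9.0 in heterozygous libraries (log2 1.35 ± 0.18 SE; 1.38 without E9.0 replicate 1) and 3.71-fold higher in homozygous ones (log2 1.89 ± 0.23 SE). Other tissues changed in the same interval: all 16 early neuron markers were called higher at E9.5 in heterozygous libraries, with a summed level of 105 to 112 CPM at E9.0 and 251 to 309 CPM at E9.5, as were all 8 heart muscle markers (69.5 to 240 and 2070 to 2750 CPM) and all 7 erythroid markers tested (645 to 1140 and 3970 to 5200 CPM), with the same counts called without heterozygous E9.0 replicate 1. Of all genes 19.2% were called higher and 16% lower in this contrast. Other lists held calls in the lower direction in heterozygous libraries. These were 8 of 12 migrating crest, 5 of 8 endothelial and 7 of 14 otic and periotic markers (7, 4 and 7 without that replicate), with 2 otic and periotic markers higher. In homozygous libraries 14 of 16 early neuron markers were called higher and 8 of 12 crest markers lower, while endothelial markers had 1 lower and 2 higher. The part of these changes in the stage differences of the family was not tested.

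Summed over the family, levels were 80.2 to 89.4 CPM in heterozygous and 57.1 to 69.5 CPM in homozygous libraries at E9.0, and 117 to 160 against 100 to 109 CPM at E9.5. The make-up of this sum shifted with stage. Per kilobase of GENCODE transcript, Pou3f3 made up 8.66 ± 0.708% of the family in heterozygous E9.0 libraries and 27 ± 0.658% at E9.5, while Pou3f1 went from 30.1 ± 4.31% to 12.8 ± 1.76% (E9.0 means of 8.4% and 29% without replicate 1). Pou3f2 held more of the family than any other member in each group with these lengths, with means of 50.3% to 58.3%. With RefSeq lengths its means were 39.9% to 47.8%, and in heterozygous E9.5 libraries Pou3f3 (40.1 ± 0.987%) and Pou3f2 (39.9 ± 1.54%) were level.

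Between genotypes the share of Pou3f4 at E9.0, again a description, was 6.28%, 5.81% and 5.36% in heterozygous and 2.9%, 3.17% and 3.78% in homozygous replicates 1, 2 and 3. The difference, which restates the choice of Pou3f4, was -2.54 percentage points (-1.5 with RefSeq lengths, whose longer model of Pou3f4 lowers each of its shares, and -2.31 without heterozygous replicate 1). At E9.5 its share was 9.58%, 10.5% and 9.86% against 8.99%, 6.34% and 9.56%, with groups that did not overlap by a narrow margin. With RefSeq lengths the shares were 5.28%, 5.74% and 5.46% against 5.21%, 3.58% and 5.31%, so that the groups overlapped. The E9.5 difference of -1.67 percentage points reached the smallest p of an exact two-sided permutation test of 3 against 3 libraries, 0.1, with GENCODE lengths. It was -0.791 with RefSeq lengths, -0.92 on counts without length and -0.686 without homozygous replicate 2. The share of Pou3f2 was 8.06 points higher (exact permutation p = 0.1), that of Pou3f1 differed by -3.82 points (exact permutation p = 0.1) and that of Pou3f3, with overlap, by -2.57 points (exact permutation p = 0.4), and the share of a member moves with those of the others.

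**Figure D3:**
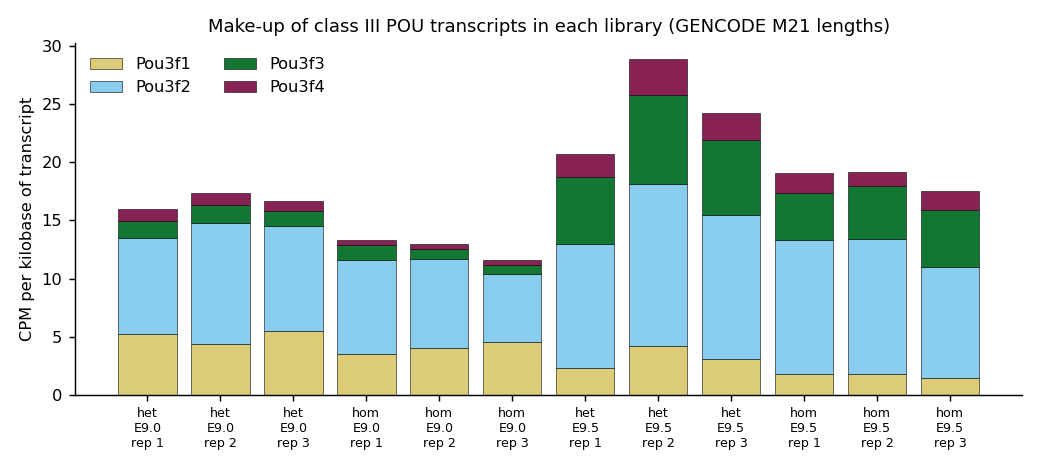
Make-up of class III POU transcripts in each library, as stacked CPM per kilobase of the GENCODE transcript from 0. Pou3f2 is the tallest part of every bar, the part of Pou3f3 grows from E9.0 to E9.5 (mean share 8.66% to 27% in heterozygous libraries), and Pou3f4 is the smallest part of every bar at E9.0.

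Beside Pou3f3 lies Pantr1, a long noncoding RNA whose annotated span, chr1:42648200-42694825, lies 942 bases upstream of the start of Pou3f3. It was looked at after its values were seen. Pantr1 lay at 1.98, 3.06 and 2.28 CPM in heterozygous and 2.55, 1.55 and 1.42 CPM in homozygous libraries at E9.0, and at 7.89, 8.15 and 8.27 CPM against 7.28, 6.87 and 6.6 CPM at E9.5. Like Pou3f3 it rose between the stages, by 1.72 ± 0.17 on the log2 scale in heterozygous (SE; edgeR adjusted p = 2.27e-06; 1.62 without E9.0 replicate 1) and 1.93 ± 0.19 in homozygous libraries (adjusted p = 1.63e-06). Its genotype difference at E9.5, -0.23 ± 0.15 (SE), did not pass the test (edgeR adjusted p = 0.576), although its groups did not overlap.

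Among the 11 POU genes of other classes, 5 could be tested. Pou4f1 (Brn-3a), a factor of sensory neurons, fell in homozygous libraries at E9.5, from 11.7 ± 3.63 to 6.08 ± 0.938 CPM (log2 -0.95 ± 0.17 SE; edgeR adjusted p = 0.0107), and this call was lost without homozygous replicate 1 or 2 (log2 -1.12 to -0.66 over the 6 fits with a library left out, adjusted p up to 0.0663). The other 4 tested did not pass at E9.5, Pou2f1 (Oct-1), expressed in most cells, lying at 134 and 137 CPM. Between stages in heterozygous libraries 2 of the 5 rose and 2 fell, where 19.2% of all genes were called higher and 16% lower. Pou6f1 rose by 1.59 ± 0.39 and Pou4f1 by 1.17 ± 0.19 on the log2 scale (SE; edgeR adjusted p = 0.00469 and 0.000179). Pou5f1 (Oct-4), the pluripotency factor, fell from 4 to 14 counts per library at E9.0 to 0 or 1 count at E9.5 (edgeR adjusted p = 0.00193). The 3 calls were kept without heterozygous E9.0 replicate 1 (edgeR adjusted p = 0.0214 for Pou6f1, 0.00128 for Pou4f1 and 0.00813 for Pou5f1).

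The 8 SOX genes listed as possible partners of class III POU proteins did not pass the test between genotypes at E9.5, in either direction. Sox2, the main SOX factor of neural progenitors, lay at 178 and 179 CPM in heterozygous and homozygous libraries, and Sox11, a factor of young neurons, at 650 and 592 CPM (log2 -0.13 ± 0.06 SE, edgeR adjusted p = 0.364). The median log2 difference of the list was 0.01 against 0 over all genes. Between stages in heterozygous libraries 2 of the 8 fell, Sox21 (-0.45 on the log2 scale) and Sox4 (-0.17), with edgeR adjusted p = 0.02 and 0.0203. Of all genes tested 16% were called lower in this contrast, and nothing is read from the count. With replicate 1 of the heterozygous E9.0 group left out, Sox21 kept its call (-0.49, edgeR adjusted p = 0.0426) and Sox4 lost it (-0.15, 0.0644).

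Of 9 genes reported as targets of class III POU proteins, 6 could be tested, and at E9.5 the only one called between genotypes was Fabp7, a fatty acid binding protein of neural progenitors and radial glia. Fabp7 fell from 24 ± 2.7 to 15.7 ± 1.01 CPM (log2 -0.61 ± 0.13 SE; edgeR adjusted p = 0.0194). The call was lost without heterozygous replicate 2 or any of the homozygous replicates (log2 -0.67 to -0.51, adjusted p up to 0.119). Nes, the neural progenitor filament with a POU and SOX enhancer, lay at 347 and 341 CPM, and Dll1, the Notch ligand, at 45.1 and 38.7 CPM (edgeR adjusted p = 0.932 and 0.322). Between stages in heterozygous libraries 4 of the 6 rose and 1 fell, where 19.2% of all genes were called higher and 16% lower. Fabp7 rose by 2.33 ± 0.15 and Mitf, the melanocyte and retinal pigment factor, by 0.76 ± 0.16 on the log2 scale, while Egr2, a hindbrain and Schwann cell factor, fell by 2.75 (edgeR adjusted p = 2.39e-08, 0.00126 and 0.000351). Their log2 differences were 2.18, 0.73 and -2.67 when heterozygous E9.0 replicate 1 was left out, and the calls were kept (edgeR adjusted p = 6.92e-08, 0.0054 and 0.00259).

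Since Pou3f4 is known from the ear, 14 otic and periotic genes were also examined, and at E9.5 2 were higher and 0 lower in homozygous libraries. Tbx1, a factor of the pharynx, ear vesicle and periotic mesenchyme, rose from 12.3 ± 0.868 to 23.8 ± 0.304 CPM (log2 0.96 ± 0.12 SE; edgeR adjusted p = 0.00092), and this call was kept with each library left out. The median log2 difference of the list was 0.27 against 0 over all genes, opposite in sign to that of the family.

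Markers of several tissues differed between genotypes at E9.5 beside the family, and their part in its differences was not tested. Of all genes 0.702% were called lower and 1.19% higher in this contrast. In the neural tube the 12 neural progenitor markers gave 0 calls (summed level 801 to 958 CPM in heterozygous and 837 to 874 CPM in homozygous libraries), while 5 of 10 markers of the midbrain-hindbrain boundary were called lower (125 to 196 against 75.5 to 97.3 CPM). The boundary genes that differed most were Cnpy1, En2 and En1 (log2 -4.96 ± 0.62, -4.64 ± 0.39 and -3.88 ± 0.5 SE; edgeR adjusted p = 0.00108, 0.000695 and 0.00585), and each kept its call with any library left out. Of 16 early neuron markers 3 were called lower (251 to 309 against 206 to 219 CPM), among them Tubb3, a neuronal tubulin, and Stmn3 (log2 -0.69 and -0.72; edgeR adjusted p = 0.000172 and 0.0237). Tubb3 kept its call with any library left out. Stmn3 was called only without heterozygous replicate 1 (log2 -0.83 to -0.64). Forebrain markers had 1 of 12 called higher (157 to 212 against 154 to 219 CPM), Rax, an eye field factor, at 0.76, which was lost without heterozygous replicate 2 or homozygous replicate 1 or 3 (log2 0.66 to 0.89). Hindbrain markers had 2 of 10 higher (116 to 124 against 133 to 172 CPM), Cyp26c1 at 0.85, called in all 6 fits (log2 0.81 to 0.94), and Fst at 0.6, kept only without heterozygous replicate 2 or homozygous replicate 3 (log2 0.49 to 0.78).

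Outside the neural tube 7 of 12 migrating crest markers were called lower (605 to 624 against 422 to 524 CPM), led by Cdh19, Foxd3 and Tfap2b at -2.7, -1.8 and -1.15 on the log2 scale, and 6 of 10 facial mesenchyme markers were called lower (235 to 364 against 190 to 235 CPM), led by Dlx1, Lhx8 and Barx1 at -3.09, -3.09 and -2.91. Of these 6 genes all but Foxd3 kept their call with any library left out, and Foxd3 lost it without homozygous replicate 2 or 3 (log2 -2.33 to -1.48, edgeR adjusted p up to 0.0867). The crest sum weighs abundant genes most. Its largest part was Crabp1, also called lower (means of 378 against 262 CPM), while Ets1, not called, had means of 77.2 against 102 CPM. Endothelial markers were called higher in 7 of 8 cases (168 to 236 against 303 to 334 CPM), with Sox18, Cdh5 and Kdr at 0.84, 0.7 and 0.64. Of the 7 calls, that of Sox18 was held only without heterozygous replicate 3 (log2 0.63 to 0.99). That of Egfl7 was lost in 4 of the 6 fits with a library left out (log2 0.24 to 0.41) and that of Tie1 in 2 (log2 0.48 to 0.75). Without homozygous replicate 1 or 3 the calls of Sox18, Egfl7 and Tie1 were all lost. Cdh5, Kdr, Tek and Flt1 kept theirs in all 6 fits. Among 7 erythroid markers tested 0 were called (3970 to 5200 against 2790 to 5100 CPM). Of 8 epithelial markers 1 was called higher (323 to 377 against 380 to 485 CPM), Epcam at 0.31, which was lost without heterozygous replicate 2 or 3 or homozygous replicate 2 or 3 (log2 0.23 to 0.37). Of 8 heart muscle markers 1 was called higher (2070 to 2750 against 2450 to 3260 CPM), Nkx2-5 at 0.62, which was lost in each of the 6 fits with a library left out (log2 0.51 to 0.7). At E9.0 2 of the 12 crest markers were called, Tfap2b and Cdh19, both lower (log2 -0.78 and -2.18; edgeR adjusted p = 0.000773 for each), and both were called without heterozygous E9.0 replicate 1 (log2 -0.83 and -2.33).

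**Figure D4:**
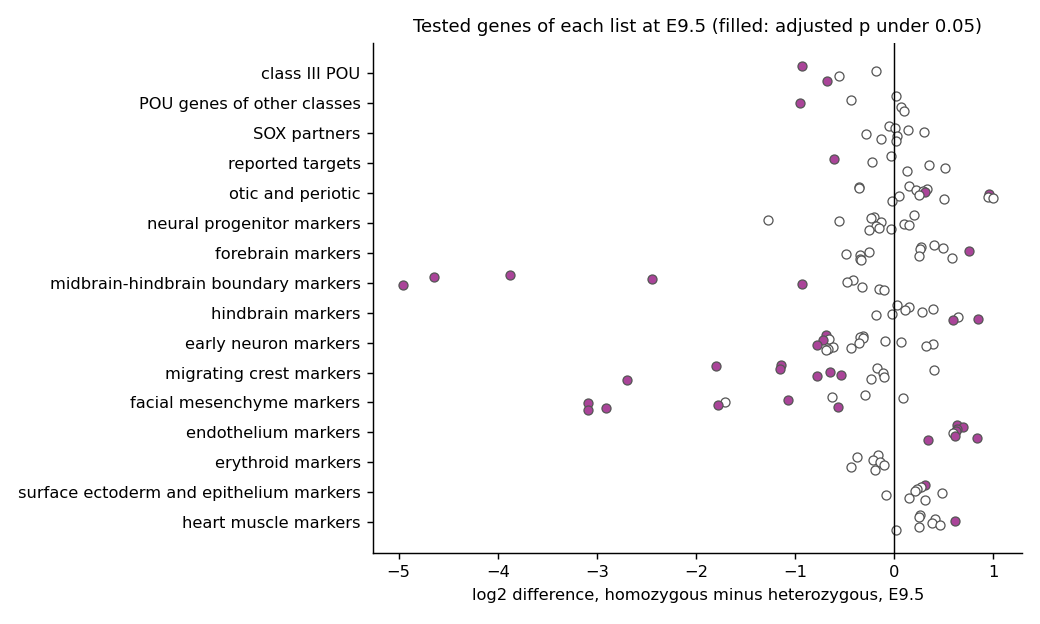
Log2 difference, homozygous minus heterozygous, of each tested gene of each list at E9.5. Each point is a gene, filled where the edgeR adjusted p is under 0.05; filled points stand to the left of 0 for 2 of 4 class III POU genes, 5 of 10 boundary markers, 7 of 12 crest markers and 6 of 10 facial mesenchyme markers, and to the right for 7 of 8 endothelial markers.

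The genes whose levels followed each member most closely across the 12 libraries were found by Pearson's r on log2 CPM after the mean of each stage was removed. These r values are descriptions, since the libraries share genotype groups and scaling. For Pou3f4 the 5 closest included Apeh, Tex16, L1cam and Napepld (r = 0.94, 0.93, 0.93 and 0.93). L1cam, a neural adhesion molecule, had 6.38, 7.18 and 5.76 against 3.38, 3.49 and 3.11 CPM at E9.0 and 4.91, 5.54 and 5.89 against 2.9, 2.73 and 3.26 CPM at E9.5. Its genotype groups did not overlap at either stage. L1cam was picked for its r with Pou3f4 over these same libraries, so nothing is read from this separation.

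For Pou3f3 the 5 closest were Scd1, Myo5a, Lrrn1, BC024139 and Fam69c (r = 0.98, 0.97, 0.97, 0.96 and 0.96). For Pou3f1 they were Tal2, En1, Mum1, Patz1 and Nr2f6 (r = 0.94, 0.94, 0.94, 0.93 and 0.93), of which En1 and Tal2, a factor of midbrain neurons, were themselves lower in homozygous E9.5 libraries by fitted log2 differences of -3.88 and -2.14. For Pou3f2 they were Atm, Thada, Ubr1, Zfp292 and Atr (r = 0.93, 0.93, 0.92, 0.92 and 0.92). No family member was among the 5 closest of another. Within the family r ran from 0.49 (Pou3f1 and Pou3f2) to 0.79 (Pou3f3 and Pou3f4), and Pou3f4 had rank 310 among 14810 genes for Pou3f3. These r values depend on the removal of the stage mean. Without it Pou3f1 had r = -0.39, -0.62 and -0.4 with Pou3f2, Pou3f3 and Pou3f4, the other 3 pairs had 0.87 to 0.93, and of the 20 genes closest to a member 11 fell below r = 0.5 (L1cam to 0.32, Nr2f6 to 0.08 and Atm to 0.15).

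The 4 members share a single-exon structure, so single-exon protein-coding genes as a class were set beside them. At E9.5 7 of the 338 tested were called higher and 8 lower between genotypes, 4.44% in all against 1.88% of 13688 multi-exon genes, and the median log2 difference was 0 in each class. At E9.0 1.48% of single-exon and 0.563% of multi-exon genes were called, with medians of 0.13 and -0.01.

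Pou3f4 is X-linked, and the sex of the embryos is not given. The summed level of 4 Y-linked genes ran from 54.5 to 215 CPM in heterozygous and from 0 to 202 CPM in homozygous libraries at E9.5, and that of Xist from 0.183 to 382 and from 0.0614 to 368 CPM. At E9.5 heterozygous replicate 1 and homozygous replicate 2 had almost no Xist, homozygous replicate 1 had no count of the Y-linked genes, and the other 3 libraries held both. At E9.0 heterozygous and homozygous replicate 1 had almost no Xist (0.22 and 0.15 CPM). Homozygous E9.0 replicate 3 had a Y-linked level of 0.0675 CPM, and the remaining E9.0 libraries held both. Whether libraries with both pooled embryos of both sexes is not stated. With the Y-linked level as a covariate the log2 difference of Pou3f4 was -0.74 at E9.5 (edgeR adjusted p = 0.00934) and -1.25 at E9.0.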

How the data were processed

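RNA of 12 mouse libraries was sequenced. The authors deposited whole-number read counts per gene symbol, not normalized; per the submitters' processing notes cutadapt, STAR, featureCounts, MultiQC and build mm10 were used, with versions, annotation and strand setting not given in the sources used here. All 12 columns were matched to samples by name.

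The tests used edgeR 4.0.16 under R 4.3.3: filterByExpr by group kept 14810 genes (the 9611 left out held at most 0.0778% of any library), TMM scaling, and the robust quasi-likelihood F test with a mean for each of 4 groups over all 12 libraries, two-sided, with Benjamini-Hochberg adjustment over all genes and a threshold of 0.05. SE is the log2 difference divided by the square root of F. Log2 CPM used a prior count of 2. No 2 libraries of a group agreed within sampling noise (chi-square per gene 10.2 to 297).

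The test was tested on simulated data. The genes named are mainly Eftud2, the 4 members, the 5 genes most like each, list members called at E9.5 (the 3 largest where more than 4), and, for POU, SOX and target lists, those called between stages. Some genes that this rule selects are not reported here. The members, lists and alternatives were chosen with earlier results of these data known. Poisson intervals are exact at 95% and cover counting error only. Alternatives used limma 3.58.1 and DESeq2 1.42.0. Figures were drawn with matplotlib 3.10.9.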

Additional observations from a re-analysis of the deposited data

Results flagged for a closer look

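Among the named list genes, 4 facial mesenchyme markers had a genotype difference that itself differed between stages (edgeR's interaction of genotype and stage, adjusted over all genes). The difference at E9.5 minus that at E9.0 was -2.72 ± 0.32 (log2, SE) for Dlx1 (adjusted p = 0.00349), -0.67 ± 0.1 for Msx1 (0.0198), -3.82 ± 0.6 for Barx1 (0.0301) and -3.88 ± 0.55 for Lhx8 (0.0181). At E9.0 their genotype differences were -0.37, 0.11, 0.91 and 0.79, and at E9.5 -3.09, -0.56, -2.91 and -3.09. Without heterozygous E9.0 replicate 1 the difference between stages was -2.76, -0.65, -3.81 and -3.82, and that of Barx1 lost its call (edgeR adjusted p = 0.115).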

How the results depend on the processing

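The members kept the sign of their differences under every setting run. With a library left out in turn, the E9.5 genotype difference ran from -1.12 to -0.67 for Pou3f1, -0.27 to -0.08 for Pou3f2, -0.64 to -0.42 for Pou3f3 and -0.82 to -0.51 for Pou3f4, and the heterozygous stage difference from -0.9 to -0.45 for Pou3f1 and from 0.31 to 0.5 for Pou3f2. The E9.5 call of Pou3f4 was lost with total counts (-0.69, adjusted p = 0.101), a mean of at least 50 counts (-0.68, 0.0512), non-robust dispersions (-0.68, 0.0501), only the groups compared (-0.69, 0.102) and a threshold of 0.01 (-0.68). That of Pou3f1 was lost with only the groups compared (-0.93, 0.1) and at 0.01 (-0.93). Pou3f3 gained a call with upper-quartile factors (-0.55, 0.0488), DESeq2 (-0.55, 0.00639), limma-voom (-0.55, 0.015) and GC and length offsets (-0.57, 0.027). In the heterozygous stage contrast the calls were lost for Pou3f1 with total counts (-0.28) and at 0.01 (-0.65), and for Pou3f2 without the filter (0.43) and at 0.01 (0.41), and with total counts Pou3f2 moved to 0.77 and Pou3f4 to 1.72. At E9.0 total counts gave -0.12 for Pou3f1, -0.17 for Pou3f2, -0.4 for Pou3f3 and -1.03 for Pou3f4. Total counts moved the median of all genes by 0.19 in the E9.0 genotype, 0.38 in the heterozygous stage and 0.18 in the homozygous stage contrast; without Rn45s, a setting chosen after seeing the data, by 0.02, 0.11 and 0.08.

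Genes called at E9.5 numbered 280, against 123 with total counts, 449 with DESeq2, 81 at 0.01 and 133 to 252 with a library left out. At E9.0 they numbered 87, against 203 with DESeq2, 209 with GC and length offsets, 34 at 0.01 and 38 to 86 with a library left out. Between stages a threshold of 0.01 gave 3325 (heterozygous) and 3387 (homozygous), and total counts 3325 (homozygous). The share difference of Pou3f4 was -1.47 points at E9.0 and -0.92 at E9.5 on counts without length, and -1.5 and -0.791 with RefSeq lengths, chosen after seeing the data. Without removal of the stage mean, r reversed for Thada with Pou3f2 (-0.18), Scd1 and Fam69c with Pou3f3 (-0.11 and -0.15) and Tex16 with Pou3f4 (-0.07), and for Pou3f1 with its 3 paralogs (-0.39, -0.62 and -0.4).

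The labels number the libraries 1 to 3 in each group. Deviations of same-numbered heterozygous and homozygous libraries correlated at 0.11, 0.03 and 0.03 at E9.0 and 0.05, 0.03 and 0.07 at E9.5, so the numbers were not taken as pairs. With the replicate block Pou3f4 had -0.68 at E9.5 and lost its call (edgeR adjusted p = 0.0727). With the block and GC and length offsets Pou3f3 had -0.56 at E9.5 and gained a call (edgeR adjusted p = 0.0489), and 136 genes were called at E9.0.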
